A study of Mus musculus with 6 samples.

Results

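The genes described here are interferon-induced GTPases of 2 families, the immunity-related GTPases (IRG) and the guanylate-binding proteins (GBP), in cultured fibroadipogenic progenitors (FAPs). They were chosen by symbol from a list of 10 genes, Igtp, Irgm1, Irgm2, Iigp1, Gbp2, Gbp3, Gbp4, Gbp6, Gbp7 and Gbp9. Of these, 9 were present among the 16894 genes of the deposited table, 4 IRG and 5 GBP genes, and Gbp4 was not analysed here. The list was drawn up with the difference between control and senescent FAPs already known, so the levels and fold changes of the 9 genes are given as a description, with no test, and nothing is inferred from how many of them differ.

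FAPs are muscle-resident mesenchymal progenitors, able to give rise to fibroblasts or adipocytes. They came from young C57BL/6 mice of both sexes, aged 3 to 6 months per the methods, and were sorted by magnetic beads as cells that carry SCA-1 and lack CD45, CD31 and α7-integrin. Senescent FAPs had received etoposide, an inhibitor of type II topoisomerase that leaves DNA breaks, at 20 μM for 48 h, and were then grown for 5 further days without the drug. Control FAPs carry the label non-senescent, and a vehicle or a matched number of days in culture is not stated for them. Both groups were grown in medium with fetal bovine serum and bFGF at low oxygen, and each group has 3 RNA-seq libraries numbered 1 to 3. The sources do not say whether the libraries of a group came from separate mice, so the spread between them may be partly technical.

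IRG and GBP proteins bind and hydrolyse GTP and act inside the cell against bacteria and parasites that live in vacuoles. Cells make little of them at rest, and interferons switch their genes on through transcription factors that bind gamma-activated sites and interferon-stimulated response elements in promoters. Among the IRG proteins, Irgm1, Irgm2 and Igtp (also called Irgm3) are regulators that sit on the cell's own membranes and keep effector IRG proteins such as Iigp1 (also called Irga6) inactive there. Released effectors and GBP proteins gather on the membrane of the vacuole and disrupt it.

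The promoters are shown first. The genes were listed as interferon-induced, so motifs of interferon signaling in their promoters are not independent of the choice, and their counts are a description. RefSeq start sites on GRCm38.p6 (mm10) were found for 6 of the 10 listed genes, Igtp, Irgm1, Irgm2, Gbp2, Gbp3 and Gbp7. Windows from 250 bases before to 50 bases after each start were searched on both strands for GAAA followed after any 2 bases by GAAA (response element) and for TTC followed after any 3 bases by GAA (gamma-activated site). A response element lay in the promoter of each of these 6 genes. Over all 32851 promoters of the same length, 3.44% held a response element and 8.30% held a gamma-activated site. The 110 bases before the start site of each gene follow, 5′ to 3′ on the gene's strand, with matches to either motif in capitals. GBP promoters carry the response element in reverse orientation, as TTTC, 2 bases and TTTC.
Irgm1 (chr11:48871421-48871530, minus strand): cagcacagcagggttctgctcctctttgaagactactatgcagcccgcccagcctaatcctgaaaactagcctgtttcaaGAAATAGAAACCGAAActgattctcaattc
Igtp (chr11:58199446-58199555, plus strand): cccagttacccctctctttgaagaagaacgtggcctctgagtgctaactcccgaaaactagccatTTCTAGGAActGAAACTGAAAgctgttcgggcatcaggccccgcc
Irgm2 (chr11:58214867-58214976, plus strand): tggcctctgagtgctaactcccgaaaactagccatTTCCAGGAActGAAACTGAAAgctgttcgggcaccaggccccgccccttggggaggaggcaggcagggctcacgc
Gbp2 (chr3:142620553-142620662, plus strand): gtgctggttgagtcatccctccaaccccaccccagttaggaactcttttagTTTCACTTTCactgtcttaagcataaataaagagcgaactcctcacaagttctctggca
Gbp3 (chr3:142559934-142560043, plus strand): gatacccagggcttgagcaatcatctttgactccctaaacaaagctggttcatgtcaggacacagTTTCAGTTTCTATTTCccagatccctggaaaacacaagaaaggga
Gbp7 (chr3:142530226-142530335, plus strand): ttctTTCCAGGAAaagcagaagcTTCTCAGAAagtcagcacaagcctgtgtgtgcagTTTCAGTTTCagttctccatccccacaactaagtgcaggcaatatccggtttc

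In Irgm1 and in Gbp3, 2 response elements overlap, which gives the longer run of capitals. All of these elements begin within 64 bases of the start site, the nearest 24 bases before it in Irgm1 and the farthest 64 bases before it in Irgm2. Gamma-activated sites lay in the promoters of 3 of the 6 genes, Igtp, Irgm2 and Gbp7. In Igtp and Irgm2 the site is followed after 2 bases by the response element, as the lines above show. Their promoters are copies of each other in part, with 68.2% of 270 bases identical without gaps when shifted by 30 bases. Gbp3 has a second RefSeq start further on, whose window held neither motif.

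The arrangement in Igtp and Irgm2 was then searched for as 1 pattern, a gamma-activated site, any 2 bases and a response element, a search chosen after the sequences had been seen. It occurred in 5 of the 32851 promoters (0.0152%), those of Igtp, Irgm2, Gm12185, Tgtp1 and Tgtp2, all of them IRG family genes on chromosome 11. Without gaps, Gm12185 and Tgtp2 were 96.6% identical over 295 bases and Tgtp1 and Tgtp2 51.7% over 292, so the 5 occurrences are not independent. A short insertion or deletion lowers this measure, so it can understate how alike 2 copies are. Tgtp1 encodes an effector IRG protein, and its promoter and that of Gm12185 are shown for comparison with the first lines.
Tgtp1 (chr11:48992247-48992356, minus strand): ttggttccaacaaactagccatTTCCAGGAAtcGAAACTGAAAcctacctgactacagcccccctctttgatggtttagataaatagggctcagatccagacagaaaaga
Gm12185 (chr11:48927183-48927292, minus strand): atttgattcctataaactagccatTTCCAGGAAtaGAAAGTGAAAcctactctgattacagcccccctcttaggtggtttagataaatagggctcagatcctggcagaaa

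Among the other IRG and GBP family genes, 11 had a RefSeq promoter, of which 7 held a response element and 5 a gamma-activated site. Irgq, Ifi47, Gm5431 and 9930111J21Rik2 held neither. The windows of 9930111J21Rik2 and its copy 9930111J21Rik1 are offset by 17 bases. In 9930111J21Rik1 the element lies after the start site, so in 9930111J21Rik2 it would cross the end of the window. The search thus cannot tell whether 9930111J21Rik2 lacks it. A match to these letters is a description of the sequence, and binding was not measured.

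**Figure D1:**
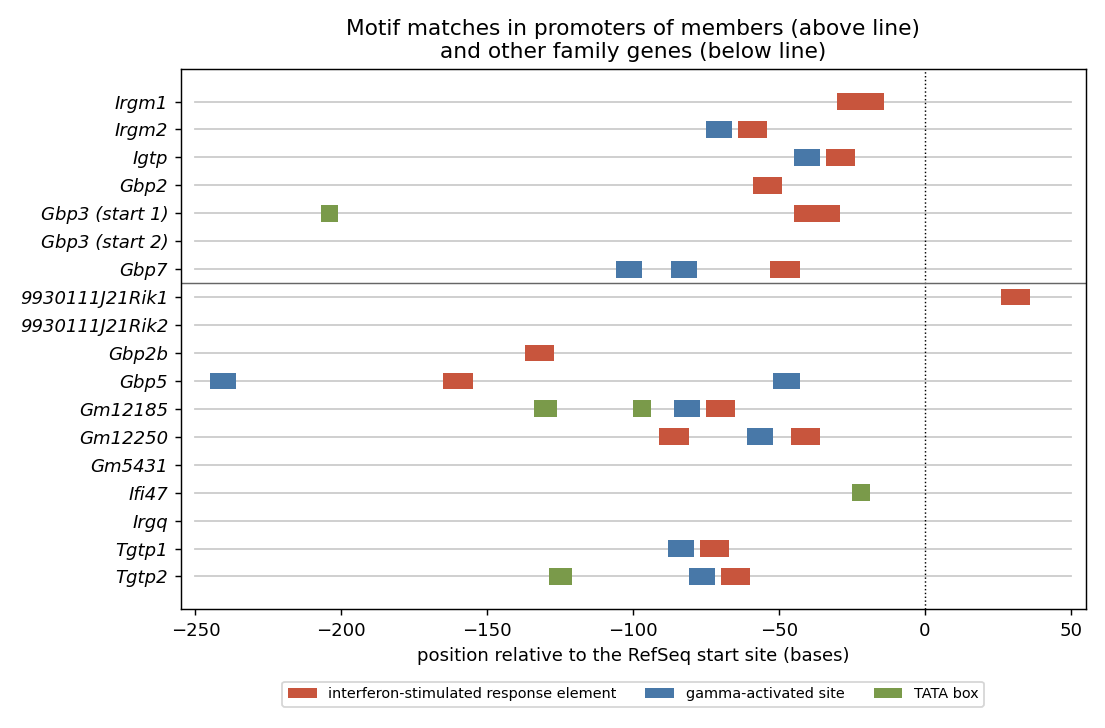
Positions of motif matches in RefSeq promoters (GRCm38.p6), in bases relative to the start site at 0, for 6 of the described genes above the line and 11 other family genes below it. Red bars are interferon-stimulated response elements, blue bars gamma-activated sites and green bars TATA boxes (TATAAA, found in 13.6% of all promoters). In Irgm2, Igtp, Gm12185, Tgtp1 and Tgtp2 a blue bar stands just before a red one.

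The deposited values are CPM, reads of a gene scaled to a common library size, here one that already includes edgeR's scaling factors. Genes received 41412179 to 59912520 reads per library, and 1 read was worth 0.0167 to 0.0225 CPM. Replicates correlated at r = 0.982 to 0.994 on log2(CPM + 0.5), lowest for control replicates 1 and 2. A gene entered the limma test if 3 or more libraries reached 0.5 CPM. This left 14776 genes, and 3218 of them were higher and 3592 lower in senescent FAPs (adjusted p under 0.05). Division by library totals alone, without the scaling factors, moved the median log2 fold change of all genes from -0.03 to 0.17 and gave 4992 higher and 1929 lower genes. Higher genes then made up 72.1% of the calls, against 47.2% with the deposited scaling.

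Markers of FAPs were present, with Pdgfra between 126 and 254 CPM and Ly6a, which encodes SCA-1, between 220 and 678 CPM. Of 12 FAP markers tested, 6 rose and 2 fell, the latter being the collagen genes Col1a1 and Col1a2. Of the 6 that rose, 1 passed the filter only through its senescent values. Thy1 was also past the threshold with the replicate number as a block (log2 fold change 0.45, limma adjusted p = 0.0127). The summed level of all 12 FAP markers was 24871 to 52891 CPM in control and 14075 to 20063 CPM in senescent libraries, lower without overlap although 6 of them rose. Mki67, which encodes the proliferation protein Ki67, had 125, 247 and 101 CPM in control and 19.0, 9.80 and 9.27 CPM in senescent replicates 1, 2 and 3. Leukocytes make IRG and GBP proteins too. Of 22 leukocyte markers listed, 12 were not analysed here, among them Ptprc, which encodes CD45, and Adgre1. The 10 others summed to 15.1 to 17.9 CPM in control and 31.9 to 37.8 CPM in senescent libraries. Of the 7 tested, 4 rose and 0 fell, the largest being Cd53 (log2 fold change 2.42, limma adjusted p = 0.00311). Among these 4, 1 passed the filter only through its senescent values, which favours a rise. Endothelial markers summed to 37.3 to 63.4 CPM in control and 40.8 to 45.8 CPM in senescent libraries, with 2 of 7 tested higher and 1 lower. Of the 2 higher, 1 likewise passed only through its senescent values. Myogenic and mural markers summed to 327 to 424 and 319 to 370 CPM, with 4 of 7 higher and 1 lower, and with the replicate number as a block Abcc9 was also past the threshold (limma adjusted p = 0.0187). The 9 GTPase genes together summed to 40.7, 54.4 and 43.6 CPM in control and 198, 226 and 247 CPM in senescent replicates 1, 2 and 3. The part of other cell types in these sums was not tested. In bulk RNA, more cells that make a transcript and more transcript per cell cannot be told apart.

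Each of the 9 GTPase genes had a higher level in all 3 senescent libraries than in any control library. Among all genes tested, 26.5% showed this separation with senescent FAPs above and 30.9% with senescent FAPs below, and limma called 21.8% higher and 46.1% in either direction. This contrast chose the 9 genes, so their count is not read against these shares. Their median log2 fold change, on log2(CPM + 0.5), was 2.46, against -0.03 for all genes tested, and the values ran from 1.32 in Gbp2 to 3.02 in Iigp1. The top of this range depends on the pseudocount, since Gbp9 (4.14) and Gbp6 (4.08) were above Iigp1 (3.81) with DESeq2 on the recovered reads. The median was 2.89 for the 4 IRG genes and 2.19 for the 5 GBP genes, an order that turned with DESeq2 (3.25 and 3.37), with edgeR (3.24 and 3.36) and with a pseudocount of 0.1 (3.16 and 3.23). Only 6 of the 9 reached 0.5 CPM in all control libraries, and Iigp1, Gbp6 and Gbp9 entered the table of tested genes through their senescent values.

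**Figure D2:**
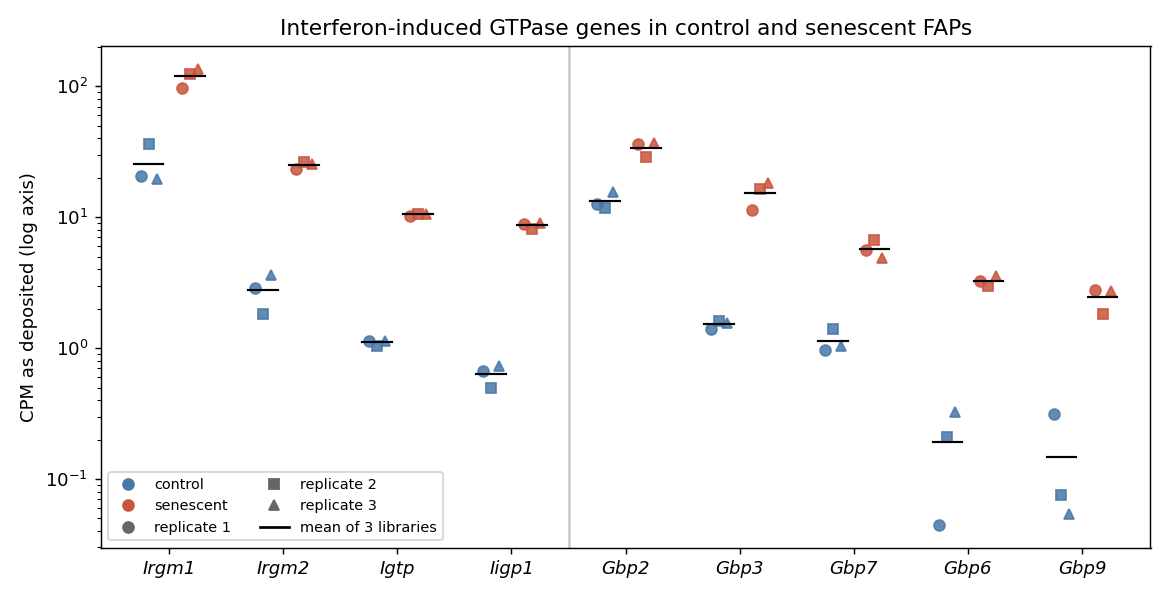
CPM of each GTPase gene in each library, on a log axis, with IRG genes left and GBP genes right of the grey line. Circles, squares and triangles are replicates 1, 2 and 3, blue for control and red for senescent FAPs, and black lines are means of 3 libraries. The red and blue symbols do not overlap in any gene, and control symbols of Gbp6 and Gbp9 are the most scattered.

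Among the regulators, Irgm1 had the highest CPM in both groups. This protein lies on the Golgi and other host membranes and is also needed for autophagy and for haematopoietic cells under interferon. Irgm1 (chromosome 11, 48861968 to 48871683, minus strand) had 20.6, 36.0 and 19.7 CPM in control replicates 1, 2 and 3 and 96.6, 124 and 136 CPM in senescent replicates 1, 2 and 3. Control replicate 2 lay well above the other control libraries, and senescent replicate 1 was the lowest of its group. The means were 25.4 ± 9.14 CPM in control and 119 ± 20.3 CPM in senescent FAPs (SD, n = 3 each), a 4.68-fold ratio of the means and a log2 fold change of 2.25 (standard error 0.23).

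Irgm2 and Igtp are plus-strand neighbours on chromosome 11, Igtp from 58199556 to 58207591 and Irgm2 from 58199618 to 58222782. Their gene models share 162 exon bases, 8.01% of those of Igtp, so some reads could have counted for either gene or for none. Irgm2 had 2.90, 1.83 and 3.61 CPM in control replicates 1, 2 and 3 and 23.5, 26.4 and 25.3 CPM in senescent replicates 1, 2 and 3. The order was reversed for replicate 2, lowest among the control and highest among the senescent libraries. Its means were 2.78 ± 0.898 and 25.1 ± 1.47 CPM (SD, n = 3 each), with a log2 fold change of 3.00 (standard error 0.21).

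Igtp, the Irgm3 gene, whose protein resides on the endoplasmic reticulum and lipid droplets, was the most even gene within groups. It had 1.14, 1.05 and 1.13 CPM in control replicates 1, 2 and 3, from 51 to 63 reads. In senescent replicates 1, 2 and 3 it had 10.3, 10.6 and 10.7 CPM, from 474 to 633 reads. The highest senescent library exceeded the lowest by 1.04 times. Its log2 fold change was 2.78 (standard error 0.13), and the ratio of the means was 9.52.

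The effector Iigp1 had the largest log2 fold change of the 9 genes at a pseudocount of 0.5, but not at 0.1 (Gbp6), at 1 (Irgm2) or with edgeR or DESeq2 (Gbp9), nor in 5 of the 6 fits that left out a library or with library totals alone. Its values were 0.670, 0.494 and 0.736 CPM in control replicates 1, 2 and 3 and 8.84, 8.10 and 9.02 CPM in senescent replicates 1, 2 and 3. Replicate 2 was lowest in both groups. The means were 0.633 ± 0.125 and 8.65 ± 0.489 CPM (SD, n = 3 each), with a log2 fold change of 3.02 (standard error 0.15). Since 97 reads stood behind the control value in all, the size depends on the scale, from 2.56 with a pseudocount of 1 to 3.81 with DESeq2 on the recovered reads.

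The GBP genes lie in 2 clusters, and those described here are Gbp7, Gbp3 and Gbp2 on chromosome 3 and Gbp9 and Gbp6 on chromosome 5. Gbp2, whose protein carries a lipid tail that anchors it to membranes, had the smallest change. It lies on the plus strand from 142620602 to 142638008 and had 12.6, 11.8 and 15.5 CPM in control replicates 1, 2 and 3 and 36.1, 28.8 and 36.8 CPM in senescent replicates 1, 2 and 3. Replicate 2 was again the lowest of each group, and the groups were 1.86 times apart at their nearest libraries. The means were 13.3 ± 1.92 and 33.9 ± 4.43 CPM (SD, n = 3 each), with a log2 fold change of 1.32 (standard error 0.14).

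Gbp3 lies 47.4 kb before Gbp2 on the same strand, from 142560026 to 142573209. It had 1.41, 1.62 and 1.54 CPM in control replicates 1, 2 and 3 and 11.4, 16.5 and 18.2 CPM in senescent replicates 1, 2 and 3. Control libraries were close together, while senescent replicate 1 stayed below the other senescent libraries, as it did for Irgm1. The means were 1.52 ± 0.107 and 15.4 ± 3.51 CPM (SD, n = 3 each), with a log2 fold change of 2.95 (standard error 0.19).

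Gbp7, from 142530342 to 142550149, had 0.960, 1.39 and 1.04 CPM in control replicates 1, 2 and 3 and 5.58, 6.66 and 4.88 CPM in senescent replicates 1, 2 and 3. Replicate 2 was the highest of each group here. The means were 1.13 ± 0.228 and 5.71 ± 0.895 CPM (SD, n = 3 each), with a log2 fold change of 1.93 (standard error 0.18). A model without values here, Gm43802, shares 11.3% of its exon bases on the same strand.

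On chromosome 5, Gbp6 (105270702 to 105293698) and Gbp9 (105077630 to 105139539), both on the minus strand, were close to the detection limit in control FAPs. Gbp6 had 2, 11 and 18 reads in control and 165, 177 and 158 reads in senescent replicates 1, 2 and 3, which is 0.0446, 0.209 and 0.323 CPM against 3.28, 2.96 and 3.56 CPM. Gbp9 had 14, 4 and 3 reads in control and 140, 109 and 122 reads in senescent replicates 1, 2 and 3, which is 0.312, 0.0761 and 0.0539 CPM against 2.78, 1.82 and 2.75 CPM. The control libraries of Gbp6 spread over 7.24 times and those of Gbp9 over 5.80 times, with different libraries at the top.

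With the reads of each group pooled, the scaled ratio was 16.0 for Gbp6 (95% exact counting interval 11.1 to 23.8) and 17.5 for Gbp9 (11.3 to 28.6). These intervals cover counting error only, not the spread between libraries. The log2 fold changes of 2.46 (standard error 0.19) and 2.19 (standard error 0.22) understate these ratios because 0.5 was added to each value. With a pseudocount of 1 they were 1.84 and 1.58, and with DESeq2 on the recovered reads 4.08 and 4.14. Gbp6 shares 29.0% of its exon bases with the model Gm43302 on the same strand, and Gbp9 shares 60 exon bases with Gbp8 and Gbp4. Reads of such near copies may have been split or lost in counting, so the values of both genes are uncertain.

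Levels were compared between genes per kilobase of exons (GENCODE M21). In control FAPs, Gbp2 (5.29 CPM per kb) and Irgm1 (4.37 CPM per kb) stood above the rest and overlapped each other. Irgm2 (0.753) and Igtp (0.546 CPM per kb) came next and also overlapped. Below them, Gbp3 (0.466), Gbp7 (0.201), Iigp1 (0.109) and Gbp6 (0.0323 CPM per kb) followed with ranges apart from one another, and Gbp9 (0.0285 CPM per kb) overlapped Gbp6. In senescent FAPs Irgm1 came first with 20.5 CPM per kb, apart from Gbp2 with 13.5 CPM per kb. Irgm2 (6.79), Igtp (5.20), Gbp3 (4.70), Iigp1 (1.49), Gbp7 (1.02), Gbp6 (0.548) and Gbp9 (0.474 CPM per kb) followed. Igtp overlapped Gbp3 there, Gbp6 overlapped Gbp9, and Iigp1 and Gbp7 had changed places.

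No library was highest throughout. Senescent replicate 3 had the highest senescent value in 6 of the 9 genes, senescent replicate 2 in 2 and senescent replicate 1 in 1 (Gbp9). Among control libraries, replicate 3 was highest in 4 genes, replicate 2 in 3 (Irgm1, Gbp3 and Gbp7) and replicate 1 in 2 (Igtp and Gbp9). Within groups the genes did not move together, as the correlation of deviations from the group means ran from -0.86 to 0.87 over the 36 pairs of genes, with a median of 0.05 and 19 pairs above 0. This is a description over 6 libraries that share 2 group means. Between same-numbered cultures, the median log2 difference over the 9 genes was 2.64, 2.29 and 2.65 for replicates 1, 2 and 3.

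Other genes of the 2 families, with the related very large interferon-inducible GTPases, were taken from a list of 28, of which 13 had values and 10 passed the filter. In senescent FAPs limma called 8 of the 10 higher and 0 lower (adjusted p under 0.05), with a median log2 fold change of 1.82. However, 7 of the 10, and 6 of the 8 called, passed the filter only through their senescent values. This favours a higher senescent level, though 9930111J21Rik2 among them overlapped between the groups and was not called. The values of the 7 are given as a description. Of the 3 genes at 0.5 CPM or more in all control libraries, a split chosen after the values were seen, 2 rose (Ifi47 and 9930111J21Rik1) and 0 fell. Over all genes tested, 21.8% were called higher and 24.3% lower.

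Ifi47, the effector gene also called Irg47, had 2.90, 8.04 and 3.36 CPM in control and 9.49, 18.1 and 20.3 CPM in senescent replicates 1, 2 and 3. The groups were apart but close, since control replicate 2 approached senescent replicate 1, with a log2 fold change of 1.70 (standard error 0.40, limma adjusted p = 0.0108). Its promoter held neither interferon motif. Gbp5, whose protein acts in inflammasome assembly, had 1, 4 and 2 reads in control and 70, 83 and 25 reads in senescent replicates 1, 2 and 3, with a log2 fold change of 1.52. Gm12185, with the paired motif shown above, had a log2 fold change of 0.94.

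The IRG-like genes Gm4951 and F830016B08Rik, neighbours of Iigp1, had log2 fold changes of 1.94 and 1.98. Gm4951 had 6 reads over the control libraries and 239 over the senescent libraries, and F830016B08Rik had 8 and 263. Gvin1 and Gm4070, of the family of very large interferon-inducible GTPases, had log2 fold changes of 1.95 and 2.08 (4.03 and 3.85 with DESeq2). Gvin1 was uneven among senescent libraries, with 1.11, 3.75 and 1.62 CPM in replicates 1, 2 and 3, and Gm4070 likewise had 1.23, 3.78 and 2.66 CPM.

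Tgtp1, Gm12250 and Gm4841 stayed under the filter. Tgtp1, the Irgb6 effector gene whose promoter is printed above, had 9 reads over the control and 79 over the senescent libraries, a scaled ratio of 8.69 (95% exact counting interval 4.36 to 19.7). Gm12250, which encodes Irgb10, an effector that attacks bacterial membranes, had 7 and 66 reads, a scaled ratio of 9.34 (4.29 to 24.1). Gm4841 had 2 and 57 reads, a scaled ratio of 28.2 (7.46 to 239). These 3 were not tested, and their intervals cover counting error only, not the spread between libraries.

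Irgq, a divergent relative that is not known as an interferon-induced gene, had 62.6, 44.4 and 63.6 CPM in control and 54.5, 54.2 and 54.9 CPM in senescent replicates 1, 2 and 3. Control replicate 2 was low and the control libraries lay on both sides of the senescent ones. Its log2 fold change was -0.04 (95% interval -0.36 to 0.28, limma adjusted p = 0.829). Without control replicate 2 it was -0.21 (limma adjusted p = 0.0432).

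**Figure D3:**
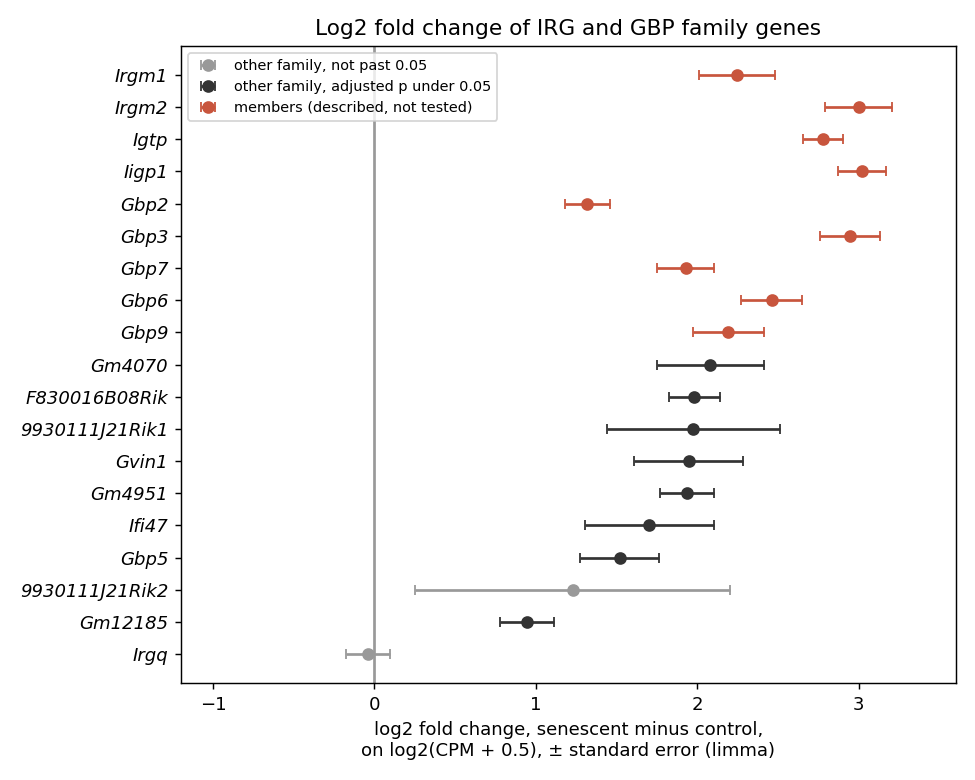
Log2 fold change, senescent minus control, on log2(CPM + 0.5), with the standard error from limma. The added 0.5 understates the change of genes with few control reads. Red points are the 9 described genes, which were not tested, black points other family genes at an adjusted p under 0.05 and grey points those not past it. Gbp2 is the lowest red point at 1.32, Irgq lies near 0 and 9930111J21Rik2 has the widest bar.

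9930111J21Rik1 and 9930111J21Rik2 are a pair of IRG copies on chromosome 11 whose proportions differed between replicate numbers. The promoter windows of the copies were 100% identical over 283 bases. 9930111J21Rik2 had 2.28, 0.399 and 0.0539 CPM in control and 12.2, 0.519 and 0.878 CPM in senescent replicates 1, 2 and 3. It was thus high in replicate 1 of both groups and low in the other libraries. 9930111J21Rik1 had 0.781, 3.84 and 0.718 CPM in control and 3.81, 8.31 and 10.4 CPM in senescent replicates 1, 2 and 3, lowest in replicate 1 among senescent libraries, and the groups overlapped there.

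Without pairing, 9930111J21Rik2 did not pass the test (log2 fold change 1.23, standard error 0.98, limma adjusted p = 0.334), and with the replicate number as a block it did (standard error 0.35, limma adjusted p = 0.0239). Its log2 fold change rested on single libraries, at 0.09 without senescent replicate 1, 0.72 without control replicate 3, 1.89 without control replicate 1 and 1.91 without senescent replicate 2. 9930111J21Rik1 rose by 1.98 (limma adjusted p = 0.0199), but missed the threshold without control replicate 1, control replicate 3, senescent replicate 2 or senescent replicate 3 (adjusted p from 0.0554 to 0.0787). Without control replicate 2 its log2 fold change was 2.58. The pair summed to 3.06, 4.24 and 0.772 CPM in control and 16.0, 8.83 and 11.2 CPM in senescent replicates 1, 2 and 3. The sums of the groups did not overlap, and how counting shared reads between the copies is not known.

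**Figure D4:**
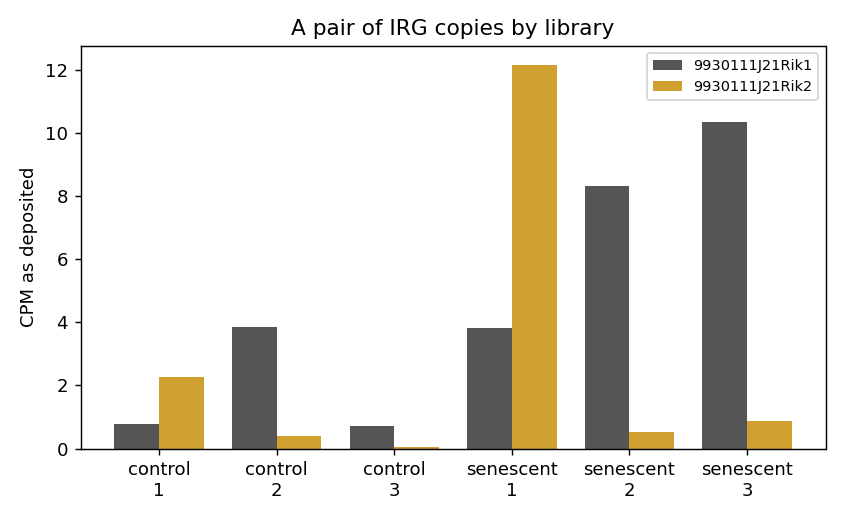
CPM of 9930111J21Rik1 (grey) and 9930111J21Rik2 (yellow) in each library. The yellow bar exceeds the grey one in replicate 1 of both groups, at 2.28 and 12.2 CPM, and is the shorter one in the other 4 libraries.

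Genes near the 9 GTPase genes that belong to neither family were examined as a check on position, within 200 kb by GENCODE gene spans, a rule set after the values had been seen. There were 25, of which 23 were tested, 4 rose, 6 fell and 13 passed the test in neither direction. The shares over all genes tested were 21.8% higher and 24.3% lower. Their median log2 fold change was -0.03, against -0.03 for all genes tested. The 4 that rose were Trim7 (1.55), Olfr56 (1.08), Psme2b (0.92) and Trim41 (0.36), all near Irgm1. Of those that fell, Gm12183 (-0.33) and Gm12184 (-0.67) also lay near Irgm1. Olfr56 passed the filter only through its senescent values, which favours a rise. Olfr56 shares 111 exon bases with Ifi47 and Psme2b shares 41 with 9930111J21Rik1, so their reads are uncertain. Beside Igtp, Gemin5 fell by 0.93 on the log2 scale (limma adjusted p = 2.54e-04), and beside Gbp2 the general transcription factor gene Gtf2b had a log2 fold change of 0.08 (limma adjusted p = 0.491).

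Large GTPases that share a dynamin-like or GBP-like fold without being known as interferon-induced, such as the atlastins, were listed as well. Of 15 tested, 5 rose and 0 fell, with a median log2 fold change of 0.16. For this list and those below, the shares over all genes tested were 21.8% higher and 24.3% lower. Atl1, an atlastin that shapes the endoplasmic reticulum, rose by 0.96 (limma adjusted p = 0.00527). Ehd4 (0.52), Dnm1 (0.50), Mfn2 (0.26) and Ehd2 (0.22) also passed the test. The count fell to 1 without control replicate 3 or senescent replicate 2, to 2 without control replicate 1 or senescent replicate 3, and to 3 without senescent replicate 1. The described genes were listed with this contrast known, so the values of these large GTPases are not read against theirs.

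Interferon ligands could not be followed, since 13 of 14 genes listed as interferons or cytokines that induce them, Ifng and Ifnb1 among them, were not analysed here. The other, Il18, which encodes a cytokine of the IL-1 family that induces interferon-gamma and is no interferon, had a log2 fold change of 0.40 (limma adjusted p = 0.0982). Of the receptors, JAK kinases, STATs and interferon regulatory factors (IRFs), 16 of 20 were tested, 8 rose and 1 fell, with a median log2 fold change of 0.35. With the replicate number as a block 2 fell, the second being Jak2 (-0.23, limma adjusted p = 0.0415), and Jak1 (0.26, limma adjusted p = 0.0371) was added to those that rose.

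Irf7, which amplifies the interferon response, had 2.16, 1.67 and 3.54 CPM in control and 21.2, 29.1 and 32.6 CPM in senescent replicates 1, 2 and 3, a log2 fold change of 3.28 (limma adjusted p = 1.98e-04). Nlrc5, the activator of MHC class I genes, had a log2 fold change of 2.10 and passed the filter only through its senescent values. Stat2 and Irf9, whose proteins act together at response elements, rose by 1.34 and 1.22. Irf9 had 16.2, 10.1 and 17.2 CPM in control and 32.6, 32.0 and 36.5 CPM in senescent replicates 1, 2 and 3, with no overlap. The receptor gene Ifngr2 rose by 0.42 and lost the call without senescent replicate 1, 2 or 3.

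Irf1, a further activator of GBP genes, named here after its values were seen, did not pass the test (log2 fold change 0.35, 95% interval -0.02 to 0.73, limma adjusted p = 0.111). It was past the threshold with library totals alone (0.56, limma adjusted p = 0.0216). Ifnar1, a chain of the type I receptor and the gene that fell, changed by -0.36 (limma adjusted p = 0.00812), and lost the call with library totals alone.

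Among the feedback inhibitors, 1 of 13 tested rose and 3 fell, with a median log2 fold change of -0.18. Usp18, which removes ISG15 and blocks the type I receptor, had 0.714, 1.24 and 1.90 CPM in control and 17.0, 20.6 and 21.3 CPM in senescent replicates 1, 2 and 3 (log2 fold change 3.54, limma adjusted p = 1.43e-04). Socs3, Ptpn1 and Ptpn2, which restrain JAK-STAT signaling, fell by 1.12, 0.75 and 0.55 on the log2 scale. Socs1, whose protein blocks signaling by the interferon-gamma receptor, had a log2 fold change of -0.51, past the threshold only with the replicate number as a block (limma adjusted p = 0.0387, against 0.0563 without it) among these 2 fits.

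Genes linked to interferon-gamma, as IRG and GBP genes are, were represented by 14 tested genes of 21, of which 13 were higher and 0 lower, with a median log2 fold change of 1.23. Of these, Cxcl9, Cxcl10, Ido1 and Psmb9 passed the filter only through their senescent values, which favours a higher senescent level. Among the 10 genes at 0.5 CPM or more in all control libraries 9 rose and 0 fell, and a filter at 2 CPM left 8 calls. Over all genes tested, limma called 21.8% higher and 24.3% lower. This list was chosen with earlier results of these data known, so its counts are a description. Icam1, a leukocyte adhesion molecule, changed most, from 2.28, 2.21 and 5.01 CPM in control to 52.5, 66.8 and 60.6 CPM in senescent replicates 1, 2 and 3 (log2 fold change 4.12). Cd274, which encodes PD-L1, rose by 2.36 and the peptide transporter gene Tap1 by 1.67. The class II loading gene H2-DMa rose too (limma adjusted p = 3.63e-04), and the chemokine gene Cxcl10 had a log2 fold change of 2.19. The MHC class II gene H2-Ab1 had a log2 fold change of 0.07 (95% interval -0.60 to 0.73, limma adjusted p = 0.868). Some of these genes also respond to type I interferon and to NF-κB.

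Autophagy proteins of the ATG8 conjugation system direct IRG and GBP proteins to vacuoles, and ubiquitin ligases and adaptors mark these vacuoles. Of 25 such genes tested, 13 rose and 0 fell, with a median log2 fold change of 0.45. With the replicate number as a block 14 rose, with Calcoco1 added (0.61, limma adjusted p = 0.0316), and 2 fell, the latter being Atg9a (-0.49, limma adjusted p = 0.0111) and Traf6 (-0.24, limma adjusted p = 0.0494). The largest changes were in the ubiquitin ligase genes Trim21 (1.70) and Rnf213 (1.69), the galectin genes Lgals9 (1.00) and Lgals3 (0.98), Gabarapl1 (0.83) and the adaptor gene Sqstm1, which encodes p62 (0.81). Rnf213 ranged from 32.6 to 35.9 CPM in control and from 101 to 124 CPM in senescent libraries.

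GBP proteins also promote pyroptosis, a lytic cell death, through caspase-11. Of 8 inflammasome and pyroptosis genes tested, of 15 listed, 5 rose and 0 fell, with a median log2 fold change of 0.61. Casp4, the mouse gene of caspase-11, had 2.97, 3.19 and 3.11 CPM in control replicates 1, 2 and 3, and senescent libraries reached up to 13.1 CPM without overlap (log2 fold change 1.79, limma adjusted p = 2.31e-04). Naip2, which passed the filter only through its senescent values, had a log2 fold change of 1.53. Casp1 rose by 1.25, Gsdmd, which encodes the pore protein gasdermin D, by 0.71 and Ninj1 by 0.40. Ninj1 lost the call without control replicate 1 or 3 or senescent replicate 2 or 3.

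Prenylation enzymes, which attach the lipid tail of proteins such as Gbp2, included 8 tested genes, of which 0 rose and 2 fell, with a median log2 fold change of -0.08. Rce1, which encodes the protease of this pathway, fell by 0.65 on the log2 scale and Fntb, a farnesyltransferase subunit, by 0.33. Fntb lost the call without senescent replicate 2 and with library totals alone. With the replicate number as a block Fnta was also past the threshold (0.23, limma adjusted p = 0.0489).

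**Figure D5:**
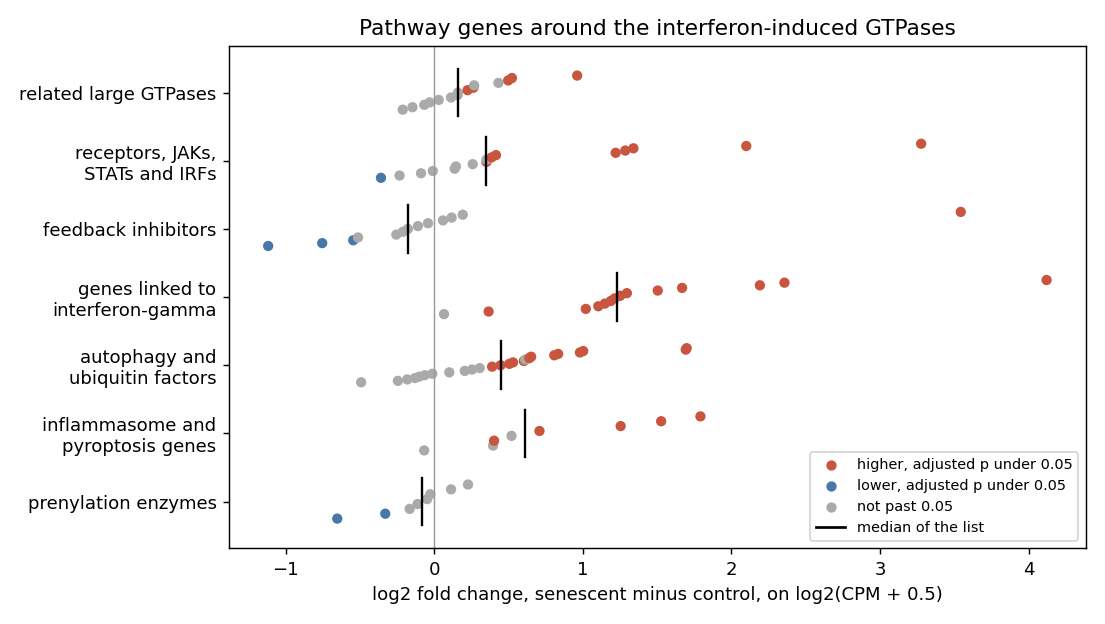
Log2 fold change, senescent minus control, of each tested gene in 7 lists, on log2(CPM + 0.5). Red points rose and blue points fell (limma adjusted p under 0.05), grey points passed in neither direction and black bars are list medians. Genes linked to interferon-gamma have the rightmost median at 1.23, and Usp18 at 3.54 stands far from the other feedback inhibitors.

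Finally, genes outside the 9 were ranked by the correlation of their log2(CPM + 0.5) with the mean of the 9 genes over the 6 libraries. The closest were Lincpint, Ifit1, Ppp2r2c, Rab29 and Capn5, with r from 0.9995 to 0.9996, of which Ifit1 is itself an interferon-stimulated gene. This ranking rests mostly on the group difference, since 1205 of 14767 genes had an r above 0.95 and 159 had one above 0.99. Lincpint and Ppp2r2c passed the filter only through their senescent values. By deviations from the group means the closest were Gm12418, Mtmr6, Lhx9, Ccdc25 and Gm29094, with r from 0.994 to 0.999, and Mtmr6 had a log2 fold change of 0.01 between the groups. By these deviations 126 of 14767 genes had an r above 0.95.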

How the data were processed

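Total RNA of 3 control and 3 senescent FAP cultures was sequenced from stranded poly(A) libraries (TruSeq). The authors counted reads per gene, scaled them with edgeR 3.10 in R 3.6.0 and deposited a signal in CPM of the effective library size, 1 value per gene and library, with build mm10 in the submitters' processing notes. The aligner, counting tool, strand setting and gene annotation are not given in the sources used here. Columns were matched to samples by group and number in the titles, and all did match.

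Dividing by the step of each column gave whole reads for 100% of values (tolerance 0.01 of a read), so reads were recovered. A row named Unspecified, 0.00409% to 0.00699% of reads, was left out. The plan assumed CPM. The signal is CPM with scaling factors (0.917 to 0.940 in control, 1.07 to 1.09 in senescent libraries), and the test was kept: two-sided moderated tests by limma 3.58.1 under R 4.3.3, with a variance trend, on values of log2(CPM + 0.5). Adjustment (Benjamini-Hochberg) covered the 14776 genes that reached 0.5 CPM in 3 or more libraries, and the script was tested on simulated data. Alternatives were other pseudocounts, filters and scalings, no trend, each library left out, a replicate block, and edgeR 4.0.16 quasi-likelihood and DESeq2 1.42.0 on the recovered reads.

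The labels do not say that equal numbers mark one mouse or day. Deviations from the group means correlated at 0.54, 0.31 and 0.21 between same-numbered libraries 1, 2 and 3, all above 0.1. Between unlike numbers they ran from -0.36 to 0.15, the latter for control replicate 2 with senescent replicate 3, so the limit of 0.1 does not single out equal numbers. The numbers may pair the libraries, but this is not settled. The main fit has no block, so its standard errors include any difference between replicate numbers. Blocked values are given for those genes reported here whose call they change. Over all genes the block gave 3576 higher and 3947 lower.

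Genes described and gene lists were chosen with earlier results of these data known. Named were the 9 GTPase genes, every other family gene with values, up to 6 called genes per list with the largest change, and the 5 genes most like the group by each of 2 correlations. Other names were chosen after values were seen. One gene that the rule names is not reported here. Positions are from GENCODE M21 (GRCm38) and promoters from RefSeq GRCm38.p6. Protein sequences were not used here.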

Additional observations from a re-analysis of the deposited data

How the results depend on the processing

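The 9 GTPase genes kept their direction under every alternative that gave them a value, and Gbp9 had none with a filter at 2 CPM. Their median log2 fold change of 2.46 moved with the scale, to 3.18 with a pseudocount of 0.1, 2.22 with 1, 3.27 with edgeR and 3.29 with DESeq2. It was 2.62 over the 8 genes left by the filter at 2 CPM, and 2.37 to 2.60 with each library left out.

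Over all genes, library totals alone gave 4992 higher and 1929 lower genes, and leaving out each library gave 2130 to 3405 higher genes. Under library totals, 0 receptor and JAK-STAT genes were lower, 2 feedback inhibitors higher, and 2 prenylation enzymes higher and 1 lower. A filter at 2 CPM tests fewer genes and left 2 other family genes, 8 genes linked to interferon-gamma and 3 inflammasome genes higher. Without a variance trend 2 related large GTPases were higher. DESeq2 called 1 autophagy gene lower and 1 prenylation enzyme higher, and edgeR and median-of-ratios scaling each called 1 prenylation enzyme higher. With the replicate number as a block, 2 receptor and JAK-STAT genes and 2 autophagy genes were lower and 1 prenylation enzyme was higher, beside the call of 9930111J21Rik2, and the counts of the other lists stayed within 1.5 times. Leaving out each library gave 1 to 5 related large GTPases higher, 0 to 1 other family genes lower, 1 to 3 receptor and JAK-STAT genes lower, 0 to 1 autophagy genes lower and 1 to 2 prenylation enzymes lower. The cause of these shifts was not tested. Depth limits Gbp6, Gbp9 and the family genes with under 30 control reads.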

Other observations

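The FAP surface marker Thy1 differed between replicate numbers in the way 9930111J21Rik2 did. It had 489, 41.3 and 61.6 CPM in control and 615, 70.9 and 73.6 CPM in senescent replicates 1, 2 and 3, high in replicate 1 of both groups. Its log2 fold change was 0.45, with a limma adjusted p of 0.756 without and 0.0127 with the replicate number as a block. This gene was chosen after its values were seen.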
